A study of Homo sapiens with 2 samples.

Results

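The SOX transcription factors are proteins that share an HMG box, a DNA-binding fold that sits in the minor groove and bends the helix. The members are the 9 genes SOX2, SOX4, SOX5, SOX6, SOX8, SOX9, SOX11, SOX12 and SOX13, found by their symbol among the 60586 genes of the authors' deposited table. They were read in 2 established human leukaemia lines. K562 comes from a chronic myeloid leukaemia in blast crisis and carries the BCR-ABL1 fusion; the labels call its cells erythrocyte. MOLT4 comes from a T cell acute lymphoblastic leukaemia, and the labels call its cells T lymphoblast. Neither line is described as treated or modified, both were kept in serum-supplemented DMEM with penicillin and streptomycin, and RNA of each came from 1 flask per the labels. Each line stands for 1 culture history and not for its cell lineage. The question the design names is how gene expression changes between the lines.

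SOX proteins bind short AT-rich sites weakly on their own, and they select their targets together with partner factors. They are grouped by the sequence of the box: SOX2 belongs to group B1, SOX4, SOX11 and SOX12 to group C, SOX5, SOX6 and SOX13 to group D, and SOX8 and SOX9 to group E. Group C proteins activate transcription through a domain at their end, whereas group D proteins have no known activation domain of their own and pair through a coiled coil. In blood, Sox4 is required for early lymphocyte development in mice, and SOX6 works with BCL11A in the silencing of embryonic and fetal globin genes.

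Because the groups were drawn from the sequence of the HMG box, closeness within a group is no separate result. The coding sequence of the box is given as description. The first 60 bases of the box are given for the 4 members that the results turn on, from GENCODE release 29 transcripts (GRCh38), 5′ to 3′ on the coding strand. Capitals mark the 38 positions at which all 4 are identical.
SOX4: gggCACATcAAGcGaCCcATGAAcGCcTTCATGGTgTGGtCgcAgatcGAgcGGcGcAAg
SOX12: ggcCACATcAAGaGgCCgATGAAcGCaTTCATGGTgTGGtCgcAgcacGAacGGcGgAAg
SOX5: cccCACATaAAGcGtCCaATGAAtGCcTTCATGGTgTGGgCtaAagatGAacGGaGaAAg
SOX6: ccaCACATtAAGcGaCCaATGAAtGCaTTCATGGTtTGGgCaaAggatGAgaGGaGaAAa
These stretches lie at chr6:21594703-21594762 (plus strand), chr20:326036-326095 (plus strand), chr12:23543263-23543322 (minus strand) and chr11:15989049-15989108 (minus strand), each within a single coding exon.

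Over the whole box of 237 bases, or 79 codons, members of the same group were identical at 78.9% to 89.9% of bases (7 pairs, median 84.0%). Members of different groups were identical at 54.9% to 73.0% (29 pairs, median 64.6%). SOX4 and SOX12 shared 84.0% of bases and SOX5 and SOX6 shared 81.4%, whereas SOX4 and SOX6 shared 57.8%. The closest pair was SOX8 and SOX9, at 89.9%.

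**Figure D1:**
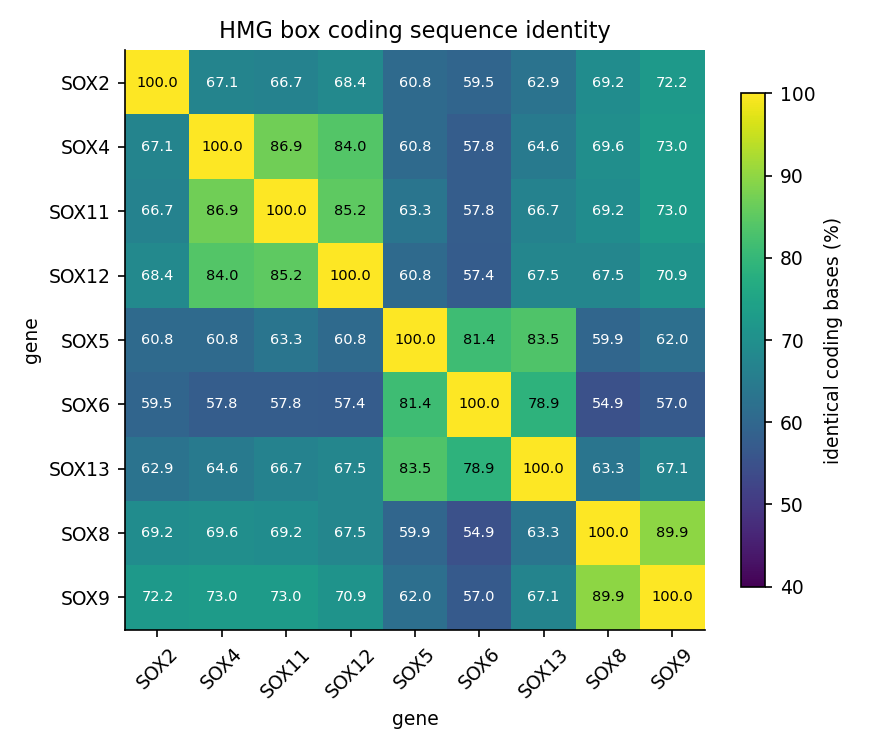
Percent of identical bases over the 237 coding bases of the HMG box for each pair of the 9 SOX genes, both axes listing the genes by group. The bright blocks along the diagonal are groups C, D and E, with 78.9% to 89.9% within a group and at most 73.0% between groups.

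The gene models also differ between the groups. SOX2, SOX4, SOX11 and SOX12 each have 1 exon and span 2.513, 5.852, 8.719 and 4.63 kb. SOX8 and SOX9 have 3 exons. The group D genes are long: SOX5 spans 1033 kb with 15 exons in its longest coding transcript (chromosome 12, 23529500 to 24562544, minus strand), SOX6 spans 773 kb with 16 exons (chromosome 11, 15966449 to 16739591, minus strand), and SOX13 spans 54.6 kb with 14 exons (chromosome 1, 204073115 to 204127743, plus strand). FPKM, fragments per kilobase of transcript scaled to the mapped fragments, divides by transcript length. Whether levels of different genes compare well across these models was not tested, so orders and shares among the members are descriptive.

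The authors' deposited table gives 1 FPKM per gene and line. GEO holds 1 sample for each line, and the 3 biological replicates that the design text mentions cannot be seen in the values, so no spread between replicates can be given and every test quoted is the authors' own. Summed FPKM was 676421 in K562 and 627392 in MOLT4, and the depth is unknown. The lines carried the markers of their labels in RNA: all 6 erythroid markers were higher in K562 (at least 58.9 FPKM, against at most 0.139 FPKM in MOLT4), and all 6 T lymphoblast markers were higher in MOLT4 (23.9 to 648 FPKM, against at most 29.7 FPKM in K562, the highest being CD3D). Of 3 myeloid markers, LYZ and SPI1 were also at 105 and 17.1 FPKM in K562. B cell and fibroblast markers reached at most 1.68 FPKM in either line.

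SOX4 was by far the most abundant member in MOLT4 and was near 0 in K562, whereas SOX12, SOX5 and SOX6 were higher in K562. Of these 3, SOX12 and SOX5 were above 1 FPKM in MOLT4 too. The authors' deposited table tested 4 of the 9 members, beside 31.1% of all listed genes. It called all 4 (Cuffdiff, Benjamini-Hochberg q up to 0.05), beside 42.2% of the 18870 tested genes. Of these, 3 were higher in K562, a direction called for 23.4% of tested genes, and 1 was higher in MOLT4, called for 18.8%. All 4 were also under a q of 0.01, as were 34.7% of tested genes, and 3 differed by at least 2-fold on the log2(FPKM + 1) scale, as did 32.3%. The other 5 members were not tested and stayed under 0.1 FPKM in both lines. A gene had to have enough fragments in a line to be tested, so the 4 called members are those with signal and do not speak for the 9. The median log2((K562 FPKM + 1)/(MOLT4 FPKM + 1)) was 1.11 over the 4 tested members and 0.0062 over all 9, beside 0.06 over all tested genes.

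**Figure D2:**
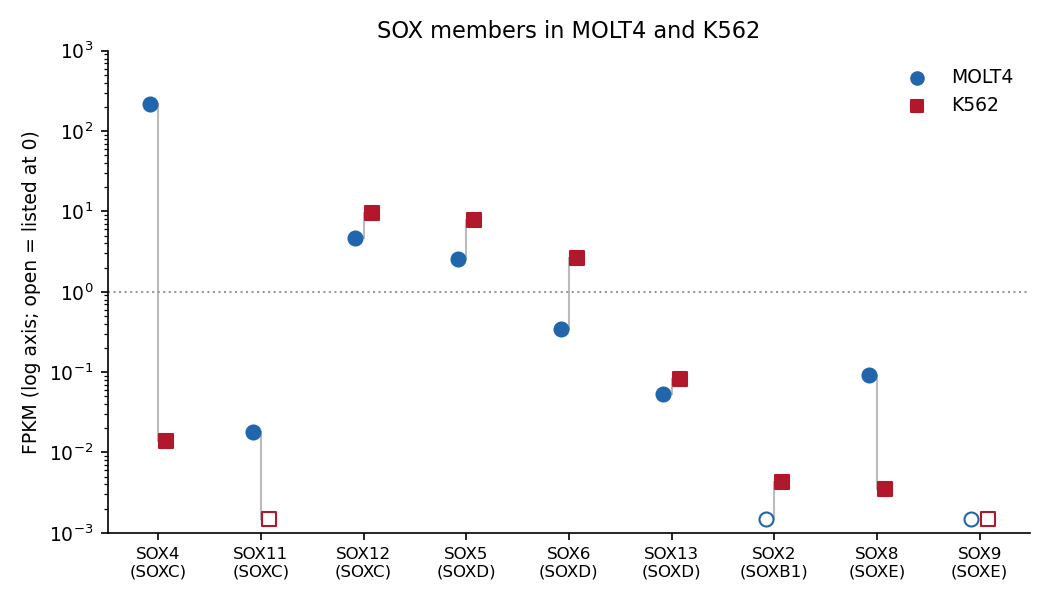
FPKM (log axis) of each SOX member in MOLT4 (circles) and K562 (squares), 1 value per line, with open symbols at the foot of the axis for values listed at 0 and a dotted line at 1 FPKM. SOX4 stands at 218 FPKM in MOLT4 against 0.0139 in K562, while SOX12, SOX5 and SOX6 are higher in K562.

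Within group C, SOX4 and SOX12 went in opposite directions. SOX4 (ENSG00000124766.7, chromosome 6, 21592768 to 21598619, plus strand, GRCh38) was at 218 FPKM in MOLT4 against 0.0139 in K562 (Cuffdiff q = 0.000571, from the authors' deposited table). SOX4, a transcriptional activator of lymphoid, cardiac and neural progenitors, ranked number 394 of the 18870 tested genes by MOLT4 level and number 18200 by K562 level. Its log2 ratio with the pseudocount of 1 FPKM was -7.75, a 216-fold difference, and 12 tested genes had a larger one toward MOLT4. Without a pseudocount the log2 ratio was -13.93, so its size rests on how a value near 0 is treated, while the direction does not. In bulk RNA, fewer expressing cells and less RNA per cell cannot be told apart.

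SOX12 (ENSG00000177732.8, chromosome 20, 325595 to 330224, plus strand) was at 4.69 FPKM in MOLT4 against 9.58 in K562. SOX12 is the weakest activator known in group C and is made in many tissues. Its difference was 2.05-fold without a pseudocount and 1.86-fold with it (Cuffdiff q = 0.000391, from the authors' deposited table), and it was the only tested member under 2-fold on the log2(FPKM + 1) scale. SOX11 (ENSG00000176887.7, chromosome 2, 5692667 to 5701385, plus strand), a factor of developing neurons that is also expressed in mantle cell lymphoma, was at 0.0179 FPKM in MOLT4 and at a listed 0 in K562, and was not tested. Summed over the 3 genes, group C reached 223 FPKM in MOLT4 against 9.60 in K562.

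Within group D, both tested genes were higher in K562. SOX5 (ENSG00000134532.18), a partner of SOX9 in cartilage and a factor of neurons, was at 2.56 FPKM in MOLT4 against 7.86 in K562, 3.07-fold higher without a pseudocount (Cuffdiff q = 0.000203, from the authors' deposited table). SOX6 (ENSG00000110693.18), which with BCL11A silences embryonic and fetal globin genes, was at 0.348 FPKM in MOLT4 against 2.62 in K562, 7.53-fold higher without a pseudocount and 2.69-fold with it (Cuffdiff q = 0.00368, from the authors' deposited table). With no pseudocount SOX6 therefore had the larger ratio of the pair, and SOX5 had the higher level in each line. SOX13 (ENSG00000143842.15), a group D factor of gamma-delta T cells in mice, was at 0.0537 FPKM in MOLT4, the T cell line, and 0.0813 FPKM in K562, and was not tested. Group D summed to 2.96 FPKM in MOLT4 against 10.6 in K562.

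Groups B1 and E were near 0 in both lines. SOX2 (ENSG00000181449.4, chromosome 3, 181711924 to 181714436, plus strand), a core factor of pluripotent and neural stem cells, was listed at 0 in MOLT4 and at 0.00431 FPKM in K562. SOX8 (ENSG00000005513.10, chromosome 16, 981808 to 986979, plus strand), a glial and gonadal factor, was at 0.0933 FPKM in MOLT4 against 0.00346 in K562. SOX9 (ENSG00000125398.8, chromosome 17, 72121020 to 72126420, plus strand), the regulator of cartilage and testis development, was listed at 0 in both. None of the 3 was tested, and whether an entry of 0 stands for a measured level is unknown.

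The order of the levels thus differed between the lines. In MOLT4 it was SOX4, SOX12, SOX5 and SOX6, with SOX4 giving 96.6% of the FPKM summed over the 9 members and SOX12 giving 2.08%. In K562 it was SOX12, SOX5, SOX6 and then SOX13, with 47.5%, 39.0%, 13.0% and 0.403% of the sum, and SOX4 gave 0.0691%. The K562 levels of SOX12 and SOX5, 9.58 and 7.86 FPKM, are neighbours for which no spread is known, so their order was not tested.

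Of 10 other SOX genes, 3 were tested and 1 was called in the authors' deposited table, beside 42.2% of all tested genes. SOX18, a group F factor of blood and lymph vessel endothelium, was at 0.0202 FPKM in MOLT4 against 2.55 in K562 (Cuffdiff q = 0.00608, from the authors' deposited table). SOX15 was at 0.342 FPKM in MOLT4 against 0.653 in K562 and missed the call (Cuffdiff q = 0.608, from the authors' deposited table). With SOX18 included, 4 SOX genes reached 1 FPKM in K562, and 3 did so in MOLT4, namely SOX4, SOX12 and SOX5.

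**Figure D3:**
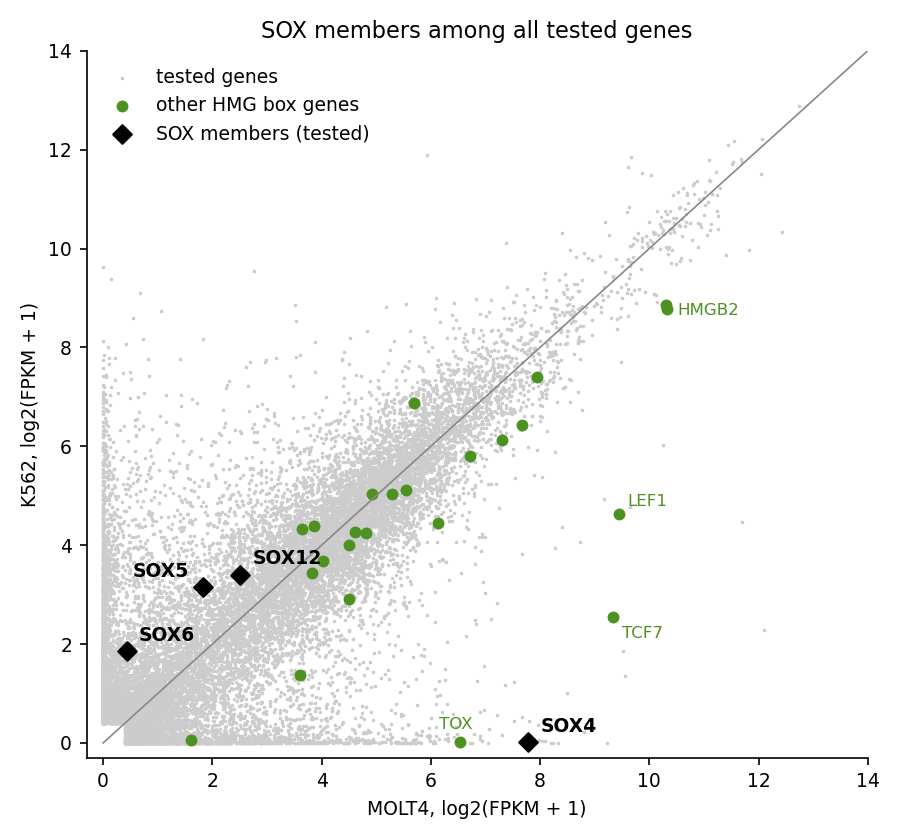
Level of each of the 18870 tested genes in MOLT4 (x axis) and K562 (y axis), both as log2(FPKM + 1), with the line of equal level. Diamonds are the 4 tested SOX members, and green circles are the 24 tested genes of the non-SOX HMG box list, which includes LEMD3. SOX4 lies at the foot of the plot near TOX, and SOX5, SOX6 and SOX12 lie above the line.

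The HMG box is also found in proteins outside the SOX family, and several of these were higher in MOLT4. Of 26 genes listed as such, 24 were tested. The list includes LEMD3, which is not known to carry the box and was tested but not called. The authors' deposited table called 12 of the 24 higher in MOLT4 against 1 in K562 (Cuffdiff, q up to 0.05). Over all tested genes these directions were called for 18.8% and 23.4%. The median log2 ratio of K562 to MOLT4 was -0.75 over the 24, beside 0.06 over all tested genes. TCF7 and LEF1, the T cell factors that bind beta-catenin, were at 648 and 694 FPKM in MOLT4 and at 4.85 and 23.7 FPKM in K562. TCF7 is also among the T lymphoblast markers given above. HMGB1 and HMGB2, abundant chromatin proteins, were at 1257 and 1277 FPKM in MOLT4 and at 463 and 439 FPKM in K562. Among these 26 genes alone, the nearest to SOX4 by distance of log2(FPKM + 1) over the 2 lines was TOX, a factor of thymocyte development, at 91.8 FPKM in MOLT4 against 0.0145 in K562 (distance 1.24), followed by TCF7 (distance 2.97). Among the same 26, the nearest to SOX12 and to SOX5 were KMT2C, at 13.2 and 9.89 FPKM in MOLT4 and K562, and HBP1, at 11.5 and 19.1 FPKM. The distances of KMT2C and HBP1 were 1.33 and 1.47 from SOX12, and 2.02 and 2.17 from SOX5. Neither gene was called, and KMT2C was lower in K562, unlike SOX12 and SOX5. For SOX6 the nearest were TCF7L1 and TOX3 (distances 1.78 and 1.91), both under 0.3 FPKM in each line and not tested. Nearness here is of levels and need not mean a like direction.

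Genes listed around globin silencing, which are not all partners of SOX6, went in both directions or were not called. All 15 genes of that list were tested, and the authors' deposited table called 3 in each direction and left 9 uncalled (Cuffdiff, q up to 0.05), with a median log2 ratio of -0.18. Over all tested genes 42.2% were called, so the 6 called of 15 are near the background. BCL11A, the partner repressor of SOX6, was at 45.4 FPKM in MOLT4 against 0.00754 in K562, opposite to SOX6. The erythroid activators GATA1 and KLF1 were listed at 0 and at 0.139 FPKM in MOLT4 and were at 151 and 66.9 FPKM in K562. Both are also among the erythroid markers given above, so these values repeat that result. LIN28B, the other listed gene called higher in K562, is not a silencing partner of SOX6. It was at 0.153 FPKM in MOLT4 against 36.3 in K562 (Cuffdiff q = 0.000203, from the authors' deposited table). NR2F2, an orphan nuclear receptor, was at 0.00946 FPKM in MOLT4 against 48.4 in K562 and missed the call (Cuffdiff q = 0.14, from the authors' deposited table). The corepressor genes HDAC1, HDAC2 and CHD4 were at 149, 155 and 128 FPKM in MOLT4 and at 128, 169 and 113 FPKM in K562, and none was called. Besides BCL11A, the genes called higher in MOLT4 were MYB and KDM1A. MYB was at 374 FPKM in MOLT4 against 118 in K562, and KDM1A at 123 and 81.9 FPKM (Cuffdiff q = 0.000203 and 0.00823, from the authors' deposited table).

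Several SOX proteins bind beta-catenin or compete with TCF factors for it. Of 20 listed genes of the beta-catenin route, 18 were tested, and the authors' deposited table called 7 higher in MOLT4 against 2 in K562 (Cuffdiff, q up to 0.05; median log2 ratio -0.32 over the 18), beside 18.8% and 23.4% of all tested genes. The beta-catenin gene CTNNB1 was at 53.5 FPKM in MOLT4 against 76.1 in K562 and missed the call (Cuffdiff q = 0.0773, from the authors' deposited table). The corepressor gene TLE4 was at 17.3 and 3.81 FPKM, and BCL9, which links beta-catenin to its activators, was at 12.0 and 2.90 FPKM, in MOLT4 and K562. CTBP1, a corepressor, was at 121 and 53.2 FPKM. CTBP2, known to bind SOX6, was at 4.84 and 1.58 FPKM and missed the call (Cuffdiff q = 0.0825, from the authors' deposited table).

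**Figure D4:**
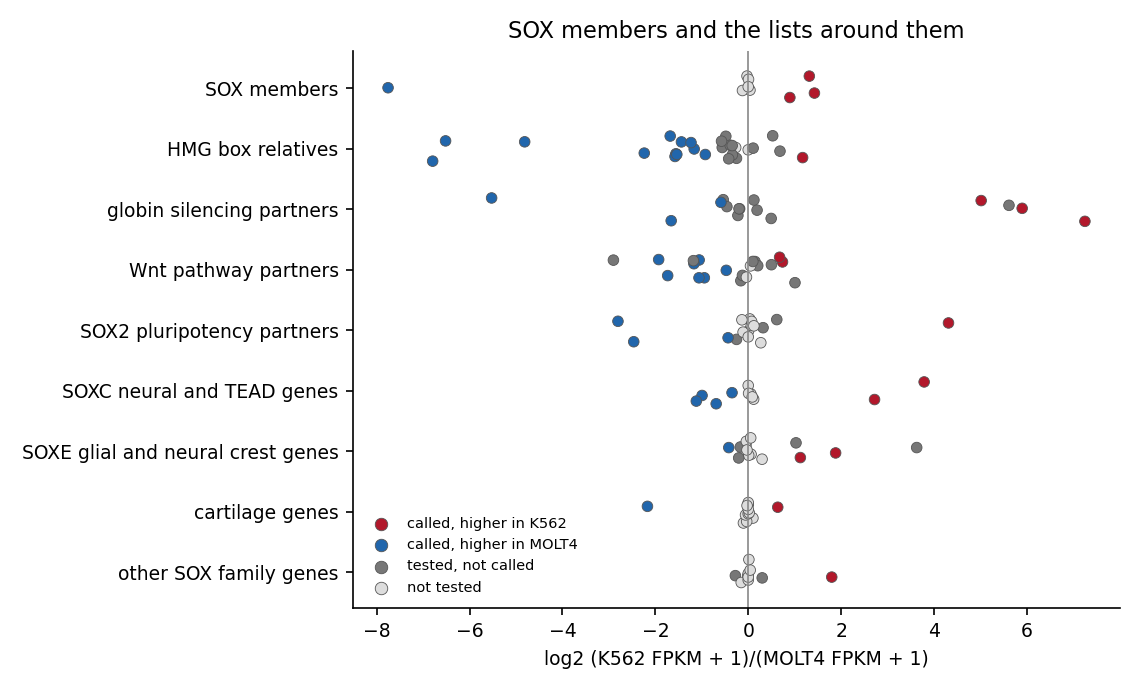
Each point is a gene, placed by log2 of (K562 FPKM + 1) over (MOLT4 FPKM + 1), for the SOX members and 8 lists of related genes on the rows, with height within a row spread at random. Colour gives the call in the authors' deposited table (red higher in K562, blue higher in MOLT4, dark grey tested and not called, pale grey not tested); in the top row SOX4 lies at -7.75 and the other 3 called members between 0.90 and 1.43.

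The surroundings of the 4 tested members were read from genes with a start in GENCODE release 29 within 1000 kb on either side, so genes that release lacks are not counted. Around SOX4, 4 other genes were tested and 1 was called in the authors' deposited table, beside 42.2% of all tested genes. The called gene was CASC15, a long noncoding RNA on the same strand whose start is 72.0 kb downstream. CASC15 was at 77.8 FPKM in MOLT4 against 0.734 in K562 (q = 0.000203, Cuffdiff). CASC15 and SOX4 therefore had the same direction. NBAT1, a noncoding RNA on the other strand 554 kb downstream, was at 0.595 FPKM in MOLT4 and at a listed 0 in K562, and missed the call (Cuffdiff q = 0.285, from the authors' deposited table). The SOX4 locus also holds the antisense transcript AL512380.2, at 0.104 FPKM in MOLT4 and at a listed 0 in K562.

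Around SOX12, 17 other such genes were tested, of which the authors' deposited table called 6 higher in K562 against 4 in MOLT4 (Cuffdiff, q up to 0.05). Over all tested genes these directions were called for 23.4% and 18.8%. The median log2 ratio was 0.57 over the 17, beside 0.06 over all tested genes. NRSN2, which starts 21.2 kb downstream on the same strand and lies in the same deposited locus, was at 1.42 FPKM in MOLT4 against 13.0 in K562. NRSN2-AS1, its antisense transcript, was at 0.685 and 8.55 FPKM. On the upstream side and nearer than TRIB3, ZCCHC3 starts at 28.6 kb and was at 33.1 FPKM in MOLT4 against 22.4 in K562, and C20orf96 starts at 34.8 kb and was at 9.28 against 3.14 FPKM. Both were called higher in MOLT4 (Cuffdiff q = 0.0073 and 0.000203, from the authors' deposited table). NRSN2, NRSN2-AS1, ZCCHC3 and C20orf96 were chosen after their values were seen. TRIB3, the nearest gene beyond that locus on the higher-coordinate side, was at 14.6 FPKM in MOLT4 against 78.5 in K562. On the other side, AL034548.2, which has no start in that GENCODE release and is not among the 17, was at 0.126 and 1.83 FPKM. NRSN2, NRSN2-AS1, TRIB3 and AL034548.2 were called higher in K562 (q = 0.000203, 0.0298, 0.000203 and 0.0143 in the authors' deposited table, Cuffdiff).

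Around SOX5, 6 other genes were tested, of which the authors' deposited table called 1 higher in K562 against 2 in MOLT4. Over all tested genes 23.4% and 18.8% were called in these directions. The median log2 ratio of the 6 was -0.71, beside 0.06 over all tested genes. Around SOX6, 12 were tested, with 4 and 3 called in those directions and a median log2 ratio of 0.02. C11orf58 shares the deposited locus of SOX6 and starts within the SOX6 span, 126 kb downstream of the SOX6 start and on the other strand. It was at 191 FPKM in MOLT4 against 180 in K562 and missed the call (Cuffdiff q = 0.854, from the authors' deposited table). These levels are far above those of SOX6, at 0.348 and 2.62 FPKM. SOX2 lies inside SOX2-OT, a long noncoding RNA on the same strand that was at 0.365 FPKM in MOLT4 against 0.0767 in K562 (Cuffdiff q = 0.000203, from the authors' deposited table). The sources used here do not say whether the counting used strand, so reads of antisense partners cannot be told apart.

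**Figure D5:**
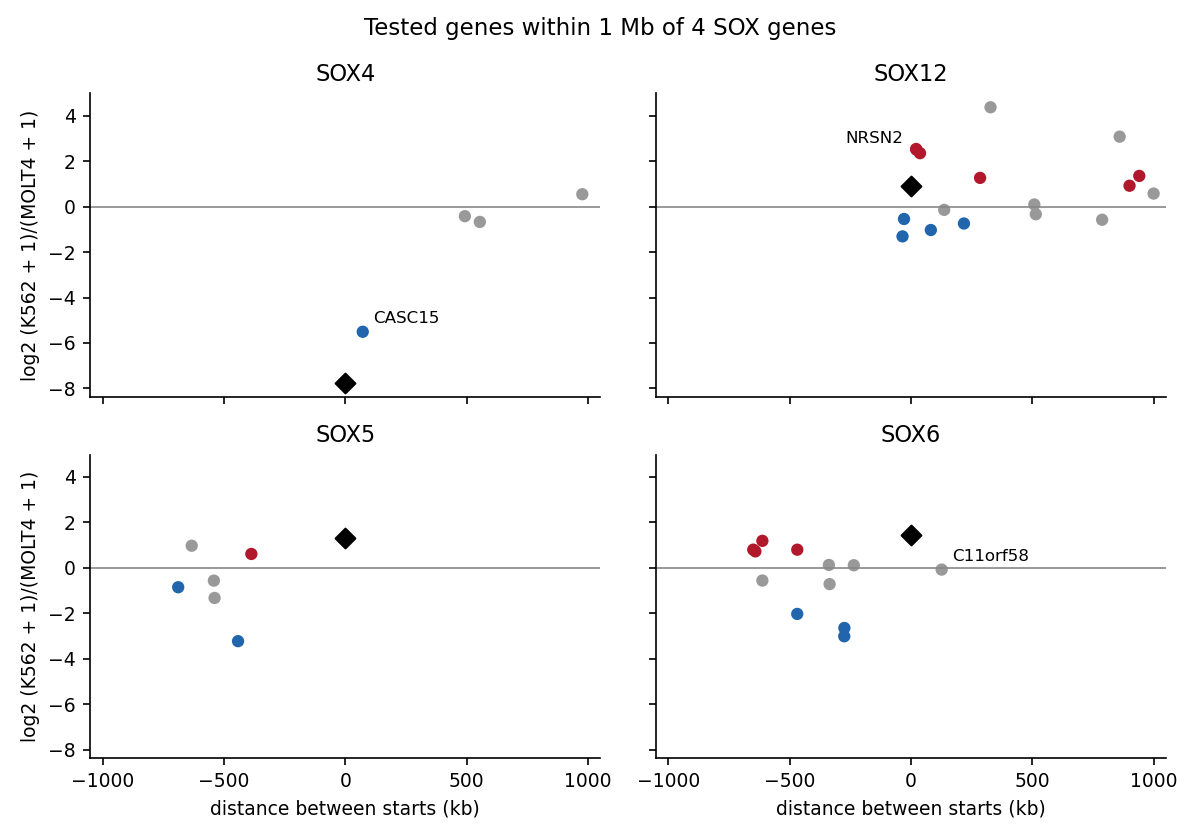
Tested genes whose start in GENCODE release 29 lies within 1 Mb of the start of each of 4 SOX genes: the x axis is the distance between starts in kb, positive downstream of the SOX gene, and the y axis is log2 of (K562 FPKM + 1) over (MOLT4 FPKM + 1). Diamonds are the SOX genes, and red, blue and grey circles are genes called higher in K562, called higher in MOLT4 and not called; CASC15 lies beside SOX4 at -5.51, and both directions occur around SOX12, SOX5 and SOX6.

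The promoter windows of the 4 tested members differ in base composition. RefSeq windows of 300 bases, mostly upstream of each start (build GRCh38.p14), were matched by symbol for 6 of the 9 members, SOX2, SOX4, SOX5, SOX6, SOX12 and SOX13. G and C made up 80.3% of the SOX12 window, 63.7% of the SOX5 window, 60% of the first of 5 SOX6 windows and 49.3% of the SOX4 window, against a median of 58.7% over 35116 windows. A SOX core (ACAAT), a motif of GATA factors (GATAA), a TCF and LEF motif (CTTTGA) and the CCAAT box were each searched on both strands. The SOX core and the CCAAT box differ in their first letter only, so a place cannot match both. The windows of SOX5 and SOX6 each held 2 matches to the SOX core, that of SOX4 held 1 match to the GATA motif and 4 CCAAT boxes, and that of SOX12 held 1 CCAAT box. The other 4 SOX6 windows each held 1 or 2 matches to the SOX core, and, counting from the first start, the second held 2 matches to the GATA motif and 1 to the TCF and LEF motif, the third held 1 to the GATA motif and the fifth held 1 to the TCF and LEF motif. CCAAT boxes were found in windows 2, 3 and 4 of SOX6. None of the first windows of these 4 genes held the TCF and LEF motif. Over all 35116 windows, 27.4% held the SOX core, 22.7% the GATA motif, 12.9% the TCF and LEF motif and 34.6% the CCAAT box.

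The stretches below are shown because they carry the ACAAT and GATAA matches or, for SOX12, lack both; matches are in capitals and each runs 5′ to 3′ on the strand of its gene. They are the parts of the windows outside annotated exons of the gene, except for SOX4, whose window lies wholly within its GENCODE exon and is given as 30 bases around the GATAA match. The SOX6 stretch holds 1 of its 2 matches.
SOX4: aagactgtgaaagGATAAagaggcgcgagg
SOX5: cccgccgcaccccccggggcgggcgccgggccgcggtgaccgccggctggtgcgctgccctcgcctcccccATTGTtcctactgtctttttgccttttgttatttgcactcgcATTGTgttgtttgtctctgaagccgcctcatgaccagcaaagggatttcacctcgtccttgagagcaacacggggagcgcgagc
SOX6: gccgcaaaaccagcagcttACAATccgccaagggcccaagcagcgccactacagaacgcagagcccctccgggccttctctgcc
SOX12: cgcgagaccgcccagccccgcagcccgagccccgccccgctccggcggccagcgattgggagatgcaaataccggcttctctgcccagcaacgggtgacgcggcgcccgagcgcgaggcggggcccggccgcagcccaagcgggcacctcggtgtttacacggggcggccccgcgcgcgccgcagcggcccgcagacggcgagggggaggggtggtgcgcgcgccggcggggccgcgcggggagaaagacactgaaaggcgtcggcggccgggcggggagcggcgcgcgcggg
They lie at chr6:21593707-21593736 (plus strand), chr12:24562545-24562741 (minus strand), chr11:16738644-16738727 (minus strand) and chr20:325302-325594 (plus strand). A match describes the letters and does not show that a factor binds there.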

How the data were processed

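RNA of K562 and MOLT4 was sequenced, with 1 GEO sample per line. The submitters' processing notes name Cuffdiff, Cufflinks 2.2.2, TopHat2 2.1.1 and CASAVA 1.8.2, and the builds GRCh38.p13 and hg38. The authors deposited FPKM per gene and line, with the p-values and q-values of Cuffdiff. The sources used here do not give how the lines were normalized against each other, and the depth is unknown.

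Adjusting the deposited p-values over the 18870 tested genes by Benjamini-Hochberg gave the deposited q-values within 5.25e-07. A smaller deposited table of 18870 rows is identical to the tested rows. Ratios were computed as log2((K562 FPKM + 1)/(MOLT4 FPKM + 1)); a pseudocount of 1 understates the change of low genes. A gene counted as called at a deposited q of at most 0.05. The 75 genes with too many fragments (status HIDATA) and the 3 failed ones were not tested. Ratios and adjustment were tested on simulated data. Gene models are GENCODE release 29, matched without version for 96.5% of identifiers. HMG boxes were located by translating GENCODE transcripts. Python 3.11.15, pandas 2.3.3 and numpy 2.4.6 were used.

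The members and lists were chosen with earlier results of these data known. All members are named. Of each list, genes could be named that were among its 4 highest mean levels or, at a mean of at least 1 FPKM, its 4 largest ratios. Neighbours and the 2 nearest genes of the HMG box list were also named. LEMD3, LIN28B, KDM1A, ELAVL4 and PROX1 were named outside this rule, after their values were seen. Of the listed names, CASC14, LINC00673 and AES were not matched (AES is an older symbol of TLE5, which was). Alternatives varied the pseudocount, scaling, low-value filter and threshold.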

Additional observations from a re-analysis of the deposited data

How the results depend on the processing

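No paired analysis was possible because each line has 1 sample and 1 value per gene. The 4 called members kept their direction under a pseudocount of 0.1 FPKM, no pseudocount, scaling to a sum of 1000000 FPKM and scaling to a median log2 ratio of 0. Over these alternatives the log2 ratio of K562 to MOLT4 ran from -13.93 to -7.75 for SOX4, from 0.84 to 1.03 for SOX12, from 1.29 to 1.62 for SOX5 and from 1.41 to 2.91 for SOX6. The sum of FPKM differed between lines by 0.11 on the log2 scale. The counts of called members, 3 toward K562 and 1 toward MOLT4, were the same at a q of at most 0.01 and with adjustment over the 14103 tested genes at a mean of at least 1 FPKM; a fold of at least 2 on the log2(FPKM + 1) scale gave 2 and 1, since SOX12 fell short. The median log2 ratio of the 4 tested members, 1.11, was 1.30 with the pseudocount of 0.1 FPKM. Over all 9 members, an alternative added after seeing the data, it was 0.0062. The ratios of SOX8, SOX11 and SOX13, which were not tested, also moved with the pseudocount, by construction, as their levels are under 0.1 FPKM. Depth is unknown, so how low a level could be detected is unknown.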

Other observations

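Genes known as companions or targets of the SOX groups in other tissues were detected in part. Of 11 genes linked to group C in neurons and tumours, 6 were tested, and the authors' deposited table called 4 higher in MOLT4 against 2 in K562 (Cuffdiff, q up to 0.05), beside 18.8% and 23.4% of all tested genes. STMN1, a regulator of microtubule assembly, was at 1726 FPKM in MOLT4 against 866 in K562, and MARCKSL1, an actin-linked membrane protein, was at 274 and 126 FPKM. ELAVL4 and PROX1, also called higher in MOLT4, stayed under 1 FPKM in both lines. They were at 0.613 and 0.349 FPKM in MOLT4, and at a listed 0 and 0.0592 FPKM in K562. In the other direction, TEAD2, a Hippo pathway transcription factor, was at 0.00745 FPKM in MOLT4 against 12.9 in K562, and TUBB3, the neuronal beta tubulin, was at 0.483 and 8.77 FPKM. Both directions thus occurred among these genes.

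Of 16 companions of SOX2, 7 were tested, and the authors' deposited table called 3 higher in MOLT4 against 1 in K562 (Cuffdiff, q up to 0.05). Over all tested genes 18.8% and 23.4% were called in these directions. ESRRB, an orphan nuclear receptor of stem cells, was at 0.0544 FPKM in MOLT4 against 19.9 in K562. PAX6, a factor of eye and brain development, was at 22.8 and 3.31 FPKM, and POU3F2, a neural POU factor, at 6.85 and 0.124 FPKM. SOX2 itself was at most 0.00431 FPKM in either line. Of 12 cartilage genes of SOX9, SOX5 and SOX6, 3 were tested. The authors' deposited table called 1 higher in MOLT4 against 1 in K562, beside 18.8% and 23.4% of all tested genes. COL9A3, a collagen chain, was at 10.2 FPKM in MOLT4 against 1.49 in K562. MATN1, a matrix protein of cartilage, was at 0.0570 and 0.642 FPKM. COL9A2 was at 0.766 and 0.767 FPKM and missed the call (Cuffdiff q = 0.998, from the authors' deposited table). Of 14 genes linked to group E, 7 were tested, and the authors' deposited table called 2 higher in K562 against 1 in MOLT4. This is near the share over all tested genes, of which 42.2% were called in either direction. AMH, the anti-Müllerian hormone of the gonads, was at 1.07 FPKM in MOLT4 against 3.51 in K562, while MITF, the melanocyte factor, was at 0.0338 and 11.8 FPKM and missed the call (Cuffdiff q = 0.324, from the authors' deposited table).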
